A study of Mus musculus with 3 samples.

Results

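The cells described here are the ventral, En1-positive ectodermal cells of the early mouse forelimb bud that lie outside the apical ectodermal ridge. They were chosen by measured values: membership of the authors' ectodermal cluster, at least 1 unique molecular identifier (UMI, 1 counted RNA molecule) of En1, 0 UMIs of Wnt7a and fewer than 5 UMIs of Fgf8. The rule found 765 cells, which were 23.3% of 3288 ectodermal cells and 1.74% of all 43950 cells. Of these, 271 came from the library B6_E9.5 (strain c57bl6.J, stage E9.5, in embryonic days), 227 from B6_E10.5 (the same strain a day later, at E10.5) and 267 from 129_E9.5 (strain 129S6.sv, also at E9.5). All embryos were wild type, whole forelimb buds were dissociated with trypsin, and a single droplet reaction (10x Genomics 3′ chemistry, version 2) was run for each group. The labels do not say how many embryos went into a reaction, and there are no replicates of a stage or a strain. The series as a whole deals with the control of En1 by a long noncoding RNA and the limb malformations that follow its loss.

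Limb ectoderm has dorsal, ventral and ridge territories. BMP signals act on ventral ectoderm through the receptor Bmpr1a and induce En1, a homeobox repressor that keeps Wnt7a, the dorsal WNT ligand, out of the ventral side. Along the border of the territories, at the distal rim, the apical ectodermal ridge forms and makes Fgf8, which sustains outgrowth of the mesenchyme beneath. Ventral En1 expression reaches into the ridge, so that En1-positive cells exist on both sides of the Fgf8 limit used here.

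In the annotation GENCODE M21 on the build mm10, En1 lies on the plus strand at chr1:120602418-120607992. The markers given for these cells beside En1 were Msx2, a homeobox target of BMP signals (minus strand, chr13:53466884-53473074), Dlx1, a distal-less homeobox gene (plus strand, chr2:71528113-71533981), Bambi, a membrane decoy receptor that dampens BMP signals, and Fzd1, a WNT receptor (minus strand, chr5:4753839-4758035). Start-site sequence is shown for En1, which defines the cells, and for Fzd1, the WNT receptor among the markers. The sequences are from RefSeq on GRCm38.p6 and run 5′ to 3′ on the gene's own strand: for En1 chr1:120602237-120602417 on the plus strand, which ends where the GENCODE gene begins, and for Fzd1 chr5:4758217-4758466 on the minus strand. Capitals mark a match to the core of a TCF/LEF site.
En1: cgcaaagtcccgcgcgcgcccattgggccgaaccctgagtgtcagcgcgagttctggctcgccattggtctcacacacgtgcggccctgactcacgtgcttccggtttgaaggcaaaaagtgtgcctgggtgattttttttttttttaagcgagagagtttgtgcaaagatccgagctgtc
Fzd1: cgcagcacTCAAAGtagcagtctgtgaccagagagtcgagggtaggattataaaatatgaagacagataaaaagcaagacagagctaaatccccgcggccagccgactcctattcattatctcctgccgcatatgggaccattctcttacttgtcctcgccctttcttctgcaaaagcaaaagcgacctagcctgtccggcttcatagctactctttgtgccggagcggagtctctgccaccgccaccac
In the 250 bases before the RefSeq start, 3 short motifs were searched on both strands for En1, Msx2, Dlx1 and Fzd1. CTTTGA, the TCF/LEF core, was found once, in Fzd1, and in 13.8% of the 32851 windows of this length in the RefSeq table. TAATTA, a homeodomain core, was found once, in Msx2, and in 4.84% of windows. The windows of Msx2 and Dlx1 lie wholly inside the GENCODE gene, as do 69 bases of the En1 window. The Msx2 match is thus not upstream of the annotated gene. GGCGCC, a core bound by SMAD proteins, was found in none of the 4 genes and in 9.59% of windows. A match is only a match of letters.

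The markers were read in 3 classes of ectodermal cells per library: the 765 ventral cells, 267 ridge cells (En1 at least 1, Wnt7a 0, Fgf8 at least 5 UMIs) and 491 dorsal cells (En1 0, Wnt7a at least 1, Fgf8 under 5 UMIs). Levels are counts per 1000000 UMIs of the class (CPM), always given in the order B6_E9.5, B6_E10.5, 129_E9.5. En1, which chose the cells, stood at 274, 223 and 347 CPM in ventral cells, against 164, 293.5 and 297 CPM in ridge cells. Msx2 stood at 406, 130 and 187 CPM in ventral cells, at 531, 329 and 264 CPM in ridge cells, and at 106, 61.8 and 40.6 CPM in dorsal cells. Its order was ridge, ventral, dorsal in all 3 libraries. Dlx1 stood at 75.6, 65.0 and 89.6 CPM in ventral cells, at 98.4, 149 and 145 CPM in ridge cells, and at 8.11, 25.8 and 13.5 CPM in dorsal cells. Bambi ranged most, with 652, 61.4 and 276 CPM in ventral cells, 1386, 1160 and 1012 CPM in ridge cells, and 146, 31.4 and 63.2 CPM in dorsal cells. Fzd1 was the exception to the order: 204, 77.4 and 93.6 CPM in ventral cells against 184, 172 and 112 CPM in ridge cells, and 28.8, 22.5 and 17.3 CPM in dorsal cells. The 4 markers were thus lower in dorsal than in ventral cells of each library, and ventral and ridge levels of Fzd1 overlapped between libraries. These markers had been picked from an earlier comparison of the same dorsal and ventral cells, so their difference is a description.

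**Figure D1:**
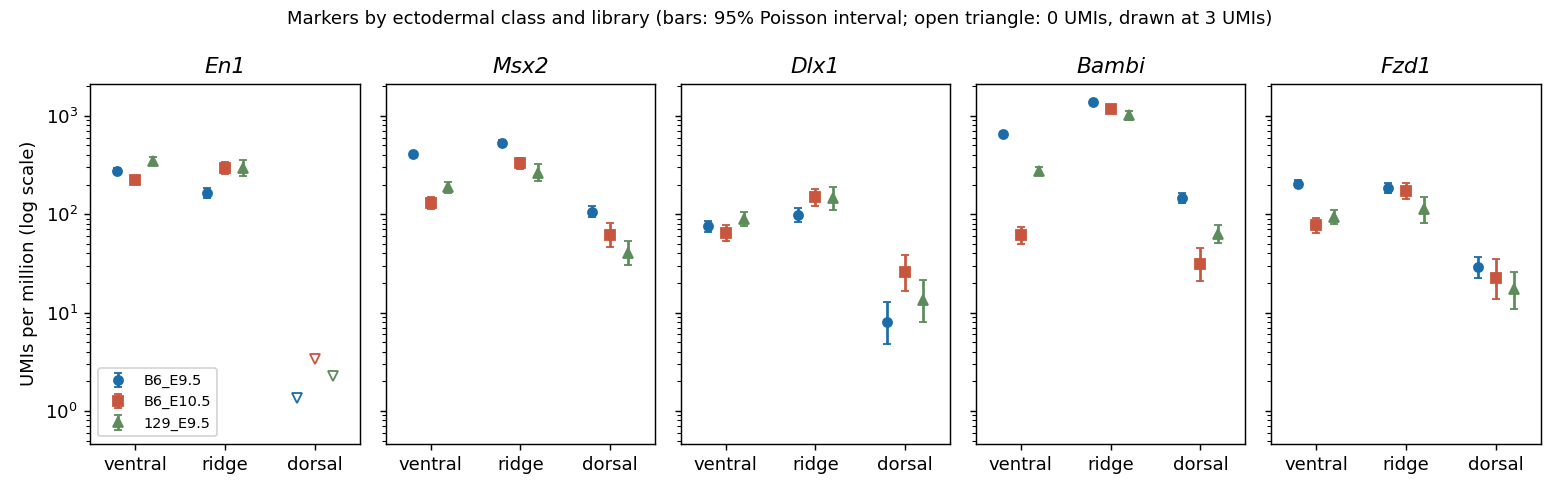
Levels of En1, Msx2, Dlx1, Bambi and Fzd1 in CPM (log axis) by ectodermal class (x axis) and library (colour and symbol). Bars are 95% Poisson intervals, and open triangles mark 0 UMIs, drawn at the level of 3 UMIs. Bambi in ventral cells lies at 61.4 CPM in B6_E10.5, while in ridge cells it lies at or above 1012 CPM in each library.

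The cells carried general ectodermal markers. A list of 12 surface ectoderm genes summed to 1928 to 3094 CPM in ventral cells of the 3 libraries, with 0 members at 0, and was led by Wnt6 (972, 459.5 and 867 CPM). A list of ridge markers summed to 217 to 379 CPM in ventral cells, near the dorsal 218 to 310 CPM, and to 1831 to 5351 CPM in ridge cells, where Fgf8 itself counts. Of the other cell types, limb mesenchyme genes summed to 524 to 626 CPM, led by Meis2 and with Tcf21 at 0, erythroid genes to 435 to 1147 CPM, led by the globin Hbb-y (569.5, 256 and 267 CPM), and macrophage genes to 0.327 to 2.36 CPM. Periderm genes, led by Sfn, summed to 236 to 325 CPM in ventral, 138 to 232 CPM in ridge and 193 to 397.5 CPM in dorsal cells. The ventral cells held 3057269, 1693240 and 1473696 UMIs in all, with medians of 11250, 7307 and 5245 UMIs per cell. In total 22 members had a barcode that also occurs in another library, and 0 shared one with another member. No doublet caller was run, and 16, 23 and 6 ventral cells had at least 2 UMIs of the mesenchymal genes Prrx1, Shox2, Tbx5 and Pdgfra.

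Membership was set by few molecules. In 361 of the 765 cells En1 was seen once (35.4%, 58.1% and 49.8% of members by library), and 649 cells had 0 UMIs of Fgf8. Ventral cells were 26.9% (exact Clopper-Pearson 95% interval 24.1 to 29.7%), 22.1% (19.6 to 24.8%) and 21.3% (19.1 to 23.7%) of the ectodermal cells. Depth differed too: the median ectodermal cell held 10410, 5731.5 and 4747 UMIs. Each cell was then thinned to 2000 UMIs, which left out 122, 114 and 96 shallower cells, and 0 UMIs of Fgf8 were required after thinning. The shares were then 13%, 9.43% and 11.1%. Since the Fgf8 limit here is stricter than in the rule, the 2 sets of shares differ by more than depth. Among mesenchymal cells, which should lack En1, 1.24%, 0.574% and 0.953% had a UMI of it at medians of 8067, 5422 and 7463 UMIs. The cells around the limits are given with no test, as CPM over the 3 libraries together. The 34 cells just inside the Fgf8 limit (3 or 4 UMIs) held 1061 CPM of Bambi, 319.0 CPM of Bmp4 and 224 CPM of Fzd1, and the 38 cells just outside (5 or 6 UMIs) held 1050, 318.7 and 218 CPM. Msx2 stood at 336 and 514 CPM on these sides, and Bhlha9 at 153 and 65.0 CPM. At the En1 limit, the 361 cells with 1 UMI held 234 CPM of Msx2, 319 CPM of Bambi and 119.8 CPM of Fzd1, against 153, 227 and 61.6 CPM in the 1205 cells with neither En1 nor Wnt7a. The libraries contribute unequally, with 96, 132 and 133 of the cells with 1 UMI and 279, 473 and 453 of those with neither. Within libraries, Bambi stood at 666, 64.0 and 262 CPM in cells with 1 UMI of En1 against 480, 43.0 and 244 CPM in cells with neither, and Fzd1 at 193, 70.8 and 101 CPM against 100.5, 37.2 and 59.2 CPM. Both were thus higher on the inner side in each library, Bambi by little in 129_E9.5. Around the Fgf8 limit B6_E10.5 gave only 4 and 2 cells. In the other libraries, B6_E9.5 and 129_E9.5, Bmp4 stood at 233 and 522 CPM inside the limit and at 302 and 389 CPM outside, so that its like pooled values come from opposite differences. Only 25 ectodermal cells had UMIs of both En1 and Wnt7a.

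Against the En1-positive ridge cells, ventral cells had more RNA of simple-epithelium keratins, the AP-2 factor Tfap2b and the Notch-induced repressor Hes1. They had less of the WNT, BMP and distal-less genes of the ridge. UMI sums of the 2 classes were compared with edgeR's quasi-likelihood test with a term for library, so that the 3 libraries served as replicates. They differ in stage and strain, and p-values measure only the spread between these libraries. En1, Wnt7a and Fgf8 were left out. Of 8903 genes tested, 198 were higher in ventral cells (2.22%) and 307 were lower (3.45%) at a Benjamini-Hochberg adjusted p under 0.05, and 1626 had an unadjusted p under 0.05. The direction was the same in 3 of 3 libraries for 499 of the 505 genes. Without 129_E9.5 the counts were 65 and 123, and DESeq2 called 46 and 130. Of the 86 results named here for this comparison, 40 lost their call in DESeq2.

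The gene of smallest adjusted p was Bhlha9, a basic helix-loop-helix factor of limb ectoderm. It stood at 203, 482 and 305 CPM in ventral cells and at 32.4, 56.9 and 39.9 CPM in ridge cells. The groups did not overlap, and the log2 difference was 2.82 (SE 0.145, adjusted p = 1.32e-07 in edgeR's quasi-likelihood test). Bhlha9 was listed among ridge genes, but here it was the 1 member of that list that was higher outside the ridge. The imprinted gene Mest, a hydrolase of unsettled substrate, stood at 1537, 889 and 1188 CPM against 788, 378 and 553 CPM in ridge cells, a log2 difference of 1.05 (SE 0.085). Hes1, the transcriptional repressor induced by Notch, stood at 125, 204 and 92.3 CPM against 29.8, 44.6 and 47.4 CPM, a log2 difference of 1.83 (SE 0.197, adjusted p = 0.000104 in edgeR). In each library Hes1 was higher in the ventral cells, by the least in 129_E9.5.

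Of 15 tested genes of surface ectoderm and keratins, 6 were higher in ventral cells and 1, the epithelial stem-cell factor Trp63, was lower (log2 difference -0.80). The list's median log2 difference was 0.25, against -0.0018 for all genes tested. In the comparison with dorsal cells, 0 of 18 tested genes of this list were higher in ventral cells. Krt19, a simple-epithelium keratin, stood at 87.0, 33.1 and 78.7 CPM in ventral, 24.8, 1.54 and 14.96 CPM in ridge and 113, 59.5 and 101.5 CPM in dorsal cells. Its log2 difference between ventral and ridge cells was 2.09 (SE 0.261, adjusted p = 0.000267 in edgeR). Krt7 differed by 2.09, Krt8 by 0.97 and Krt18 by 0.82 on the log2 scale. Tfap2b, an AP-2 factor of surface ectoderm and neural crest, stood at 20.3, 239 and 36.0 CPM against 3.81, 20.0 and 0 CPM, and its relative Tfap2a differed by 0.68 (log2). Krt14 and Krt5, keratins of the basal epidermis, did not pass the test, with log2 differences of 1.17 (adjusted p = 0.0715 in edgeR) and -0.05. Cldn3, a tight-junction protein, stood at 63.8, 19.5 and 203 CPM against 12.7, 0 and 44.9 CPM. Of 25 genes of junctions and basement membrane, Cldn3 and Cldn4 were higher and the gap-junction gene Gja1 and the integrins Itga4 and Itga6 were lower. Leaving out 129_E9.5 ended the edgeR calls of Tfap2a (adjusted p = 0.147), Cldn4 (0.325), Itga4 (0.269) and Itga6 (0.0955), and leaving out B6_E9.5 those of Tfap2a (0.0659) and Cldn4 (0.156). DESeq2 did not call Tfap2a, Cldn3 (adjusted p = 0.058), Cldn4 or Itga4.

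Among further leading genes, Gas1, a cell-surface Hedgehog co-receptor, was higher in ventral cells by 1.54 on the log2 scale, Prr5, a component of the kinase complex mTORC2, by 2.12, and Wdr86 by 2.15. The chemokine Cxcl14 stood at 155, 892 and 991 CPM against 35.5, 108 and 429 CPM in ridge cells, a log2 difference of 2.02 (SE 0.230). It was high in B6_E10.5 and 129_E9.5 and low in B6_E9.5 within both classes. Meis2, a homeobox gene of the proximal limb, was higher by 0.98 on the log2 scale. Meis2 also leads the list of limb mesenchyme genes, whose sum was 524 to 626 CPM in ventral and 340 to 436 CPM in ridge cells. Meis2 itself made up 339, 266 and 287 CPM of the ventral sums and 154, 138 and 150 CPM of the ridge sums. Without cells holding at least 2 mesenchymal UMIs, the log2 difference of Meis2 was 1.03 and its call was kept. Of 8 Notch pathway genes, Notch2, Hes1 and Hes6 were higher and 0 were lower, with a list median of 0.63. Of 20 S phase genes, Mcm6, Pcna, Ung and Hells were higher (list median 0.37) and 0 were lower, and of 20 G2 and M phase genes Ube2c and Nusap1 were lower. Without 129_E9.5 all 4 S phase calls were lost (adjusted p of 0.167, 0.118, 0.1 and 0.142 in edgeR), as were Ube2c (0.15), Nusap1 (0.159) and Hes6 (0.09). Without B6_E9.5 the calls of Mcm6 (0.159), Pcna (0.0659), Hells (0.115), Ube2c (0.146), Nusap1 (0.209) and Notch2 (0.232) were lost, and without B6_E10.5 that of Hes6 (0.0525). DESeq2 called none of these genes of the Notch, S phase and G2 and M phase lists except Hes1.

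Of the 12 leading genes on the ridge side, Rspo2, Bmp2, Bmp4 and Wnt5a encode secreted signals. Rspo2, a secreted enhancer of WNT signalling, stood at 6.87, 3.54 and 22.4 CPM in ventral cells and at 64.7, 215 and 217 CPM in ridge cells. Its log2 difference of -3.91 (SE 0.312, adjusted p = 1.4e-05 in edgeR) was the largest in size among the 24 leading genes. Of 14 WNT targets and inhibitors 10 were lower in ventral cells and 0 higher, with a list median of -1.23 (log2). They included Axin2 (-1.69), a scaffold of β-catenin destruction and a common readout of WNT signals, the factors Lef1 (-0.98) and Tcf7 (-1.54), Apcdd1 (-2.21), an extracellular WNT inhibitor, and Znrf3 (-1.29), a ligase that removes WNT receptors. Notum, an enzyme that inactivates WNT ligands, stood at 6.87, 4.73 and 2.71 CPM in ventral cells and at 36.2, 118 and 34.9 CPM in ridge cells. Without 129_E9.5 the list count was 6 lower and 0 higher, and Lef1 was among the calls lost (adjusted p = 0.0575 in edgeR). Of 11 WNT ligands and R-spondins, Wnt5a, Wnt10b and Rspo2 were lower and Wnt4 and Wnt7b higher. Wnt5a, a non-canonical ligand, stood at 155, 119 and 137 CPM against 310, 336.5 and 297 CPM, and Wnt7b at 11.4, 172.5 and 29.9 CPM against 5.08, 10.8 and 2.49 CPM. The call of Wnt4 was lost without B6_E9.5 (adjusted p = 0.0914 in edgeR) and without 129_E9.5 (0.112). Of 13 WNT receptors Fzd10 was lower and 0 were higher, and its call was lost without 129_E9.5 (adjusted p = 0.0648 in edgeR). Fzd1 differed by -0.40 (SE 0.195, adjusted p = 0.305 in edgeR), and by -0.80 with a call without B6_E9.5 (adjusted p = 0.0321). DESeq2 did not call Tcf7 (adjusted p = 0.471), Wnt7b (0.0845), Wnt4 (0.083) or Fzd10 (0.117), and of the 14 WNT targets and inhibitors it called 5 lower.

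BMP ligands were higher on the ridge side. Bmp4 stood at 77.5, 28.4 and 97.7 CPM in ventral cells and at 348, 742 and 685.5 CPM in ridge cells, a log2 difference of -3.11 (SE 0.300, adjusted p = 4.57e-05 in edgeR). Bmp2 stood at 9.81, 6.50 and 7.46 CPM against 48.9, 72.2 and 44.9 CPM, a log2 difference of -2.75 (SE 0.257). With Bmp5 and Bmp7, 4 of 9 BMP ligands and receptors were lower and 0 higher. The values of the 2 classes did not overlap for Bmp4 and Bmp2. Among BMP transducers and targets the list split: Msx1 (-1.66), Msx2 (-0.76) and Smad5 were lower, Id3 (0.49) and Id4 (1.08) higher, of 10 tested. The decoy receptor Bambi differed by -2.27 (SE 0.371, adjusted p = 0.00227 in edgeR). By contrast Sostdc1, a secreted BMP and WNT inhibitor, was higher in ventral cells by 1.34 on the log2 scale. Without 129_E9.5 edgeR no longer called Bmp5 (adjusted p = 0.245), Bmp7 (0.0688), Smad5 (0.127), Id3 (0.214) or Id4 (0.131). Without B6_E9.5 it no longer called Id3 (0.0585) or Id4 (0.065), and without B6_E10.5 Bmp7 (0.0648) or Id4 (0.221). In DESeq2 the calls of Bambi (adjusted p = 0.143), Msx1 (0.399), Bmp5 (0.572), Bmp7 (0.0743), Smad5 (0.206), Id3 (0.0747) and Id4 (0.738) were lost, while those of Bmp4, Bmp2 and Msx2 were kept.

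Distal-less, Msx and T-box genes were lower outside the ridge for 7 of 9 tested, with 0 higher and a median of -0.77 (log2). Dlx5 stood at 49.7, 10.6 and 30.5 CPM in ventral cells against 157, 144 and 115 CPM, and Dlx6 at 6.21, 1.77 and 10.2 CPM against 29.2, 64.5 and 29.9 CPM. The differences were smaller for Dlx1 (-0.77) and Dlx2 (-0.61) than for Dlx5 (-2.24) and Dlx6 (-2.75), values without a test between genes. The calls of Dlx1, Dlx2 and Tbx3 were lost without 129_E9.5 (adjusted p of 0.0875, 0.0802 and 0.212 in edgeR), and in DESeq2 those of Dlx1 (0.083) and Dlx2 (0.0881). Of 17 ridge genes 14 were lower and 1, Bhlha9, higher, and without 129_E9.5 the counts were 9 and 1. Sp8, a zinc-finger factor needed for Fgf8 expression in limb ectoderm, was lower by a log2 difference of only -0.54, at 270, 174 and 203 CPM against 349.7, 286 and 272 CPM. Sp8 was thus well represented on both sides of the Fgf8 limit, and its call was lost without 129_E9.5 (adjusted p = 0.0878 in edgeR) and in DESeq2 (0.0992). Of 11 tested FGF ligands, receptors and feedback genes 0 passed in either direction, against 2.22% higher and 3.45% lower among all genes tested. With 11 genes a count of 0 is near those shares, and the filter on low counts left out other members. Fgf8, which chose the classes, was not tested. Without the filter on low counts 19 were tested, with 1 higher and 3 lower. Without B6_E9.5, 13 were tested, with 0 higher and 2 lower. The ligand Fgf9 stood at 0.424, 1.86 and 4.71 CPM in members with 0 Fgf8 UMIs. In cells with at least 20 Fgf8 UMIs it stood at 6.50, 152 and 53.9 CPM. The ETS factor Etv4 stood at 80.1, 78.0 and 72.6 CPM against 91.4, 90.7 and 74.8 CPM, and the receptor Fgfr2 at 62.1, 78.5 and 50.9 CPM against 49.5, 56.9 and 57.3 CPM. For both, values of the 2 classes overlapped.

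Other genes lower in ventral than in ridge cells were Adamts18, an extracellular protease (92.9, 40.2 and 40.0 CPM against 294.5, 230.5 and 179.5 CPM), Npm3, a nucleolar chaperone and neighbour of Fgf8 (log2 -1.64), Mylip (-2.29), an E3 ubiquitin ligase, Map2 (-2.11), a microtubule-associated protein, Slc16a10 (-3.54), an amino acid transporter, Tent5a (-3.38), a poly(A) polymerase, and Gorasp2 (-1.36), a Golgi stacking protein. Map2 belongs with neuronal genes, and a list of neuronal markers led by Tubb3 summed to 34.0 to 107 CPM in ventral cells and to 112 to 174.5 CPM in ridge cells. Tubb3 alone made up 31.7, 37.2 and 84.8 CPM of the ventral sums and 110, 164 and 172 CPM of the ridge sums. Of the 8 members, 6, 4 and 6 had 0 UMIs in ridge cells, against 5, 4 and 1 in ventral cells. Whether that list bears on Map2 was not tested. All 24 leading genes kept their call when any 1 library was left out, and 23 were called by DESeq2, the exception being Cldn3. Ridge cells were deeper than ventral cells in B6_E9.5 (medians 14793 and 11250 UMIs) and shallower in the other libraries (6327.5 and 7307 in B6_E10.5, 4692 and 5245 in 129_E9.5).

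Most of the lower genes differed most in the library B6_E10.5. Among the 307 lower genes B6_E10.5 had the largest of the 3 differences for 221, and the median log2 ratio was -0.666, -1.5 and -1.08 in the order of libraries above. Bmp4 shows the pattern, with log2 ratios of -2.16, -4.70 and -2.81, as does Bambi, with -1.09, -4.23 and -1.87. For the 198 higher genes the medians lay closer together, at 0.781, 0.979 and 0.907. The make-up of the classes moved with this too, since ridge cells held 1221, 4436 and 2271 CPM of Fgf8. Stage, library and class make-up cannot be told apart.

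The classes are cuts through a range. Among the ventral cells, 62, 12 and 42 had 1 to 4 UMIs of Fgf8 (22.9%, 5.29% and 15.7% of members). Each of the 12 leading genes higher in ventral than in ridge cells was lower in these low-Fgf8 cells than in the members with 0 UMIs, in all 3 libraries. Of the 12 leading genes lower in ventral cells, 12, 10 and 12 were higher in the low-Fgf8 members. These genes were picked on the same cells and Fgf8 formed the classes, so the counts are a description. In B6_E9.5, Bmp4 stood at 54.2, 156, 322, 238 and 450.2 CPM over the classes of 0, 1 to 4, 5 to 9, 10 to 19 and at least 20 Fgf8 UMIs. In B6_E10.5 the same classes held 22.9, 140.4, 383, 364 and 904 CPM of Bmp4, and in 129_E9.5 63.6, 316, 560, 813 and 647 CPM. Bmp4 was thus intermediate in the low-Fgf8 members of each library. Bambi ran from 50.2 CPM at 0 UMIs through 294 CPM at 1 to 4 UMIs to 799 CPM at 5 to 9 UMIs in B6_E10.5, and from 522.5 through 1091 to 1504 CPM in B6_E9.5. Bhlha9 ran the other way, from 215, 492 and 324 CPM at 0 UMIs to 162, 281 and 180.4 CPM at 1 to 4 UMIs and 43.1, 32.0 and 56.7 CPM at 5 to 9 UMIs. Wnt6, a ligand of general surface ectoderm, was nearly flat over the lower classes of B6_E9.5, and somewhat lower in the last. It stood there at 972, 971, 928, 915 and 748 CPM over the same classes. In 129_E9.5 it stood at 866.5, 867, 956, 819 and 841 CPM. In B6_E10.5 Wnt6 was not flat, at 458, 498, 1022, 619 and 756 CPM. The classes hold few cells in B6_E10.5 (12 cells with 1 to 4 and 7 with 5 to 9 UMIs), and a deeper cell is more readily counted in a higher class. In B6_E9.5 the medians ran from 11260 and 10915 UMIs per cell in the first 2 classes to 17198 in the last.

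**Figure D2:**
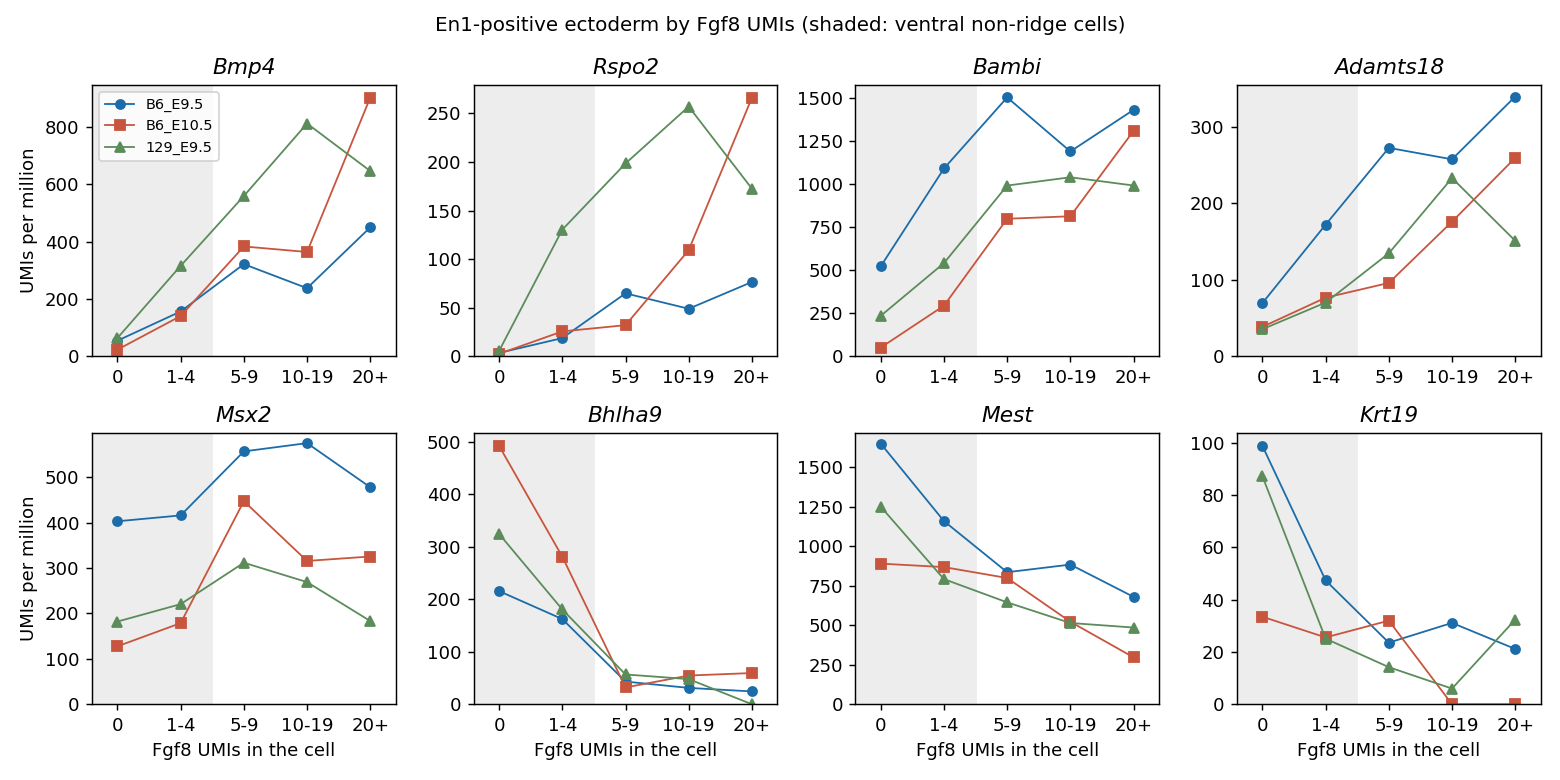
CPM of 8 genes (y axes, each from 0) in En1-positive, Wnt7a-negative ectodermal cells grouped by their Fgf8 UMIs (x axis), 1 line per library, with the ventral classes shaded. In cells with 0 Fgf8 UMIs, Bmp4 is at its lowest (54.2, 22.9 and 63.6 CPM) and Bhlha9 at its highest (215, 492 and 324 CPM) in each library.

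Against dorsal Wnt7a-positive cells fewer genes passed the test, with Itga4, Dlx2 and Gata3 of smallest adjusted p on the ventral side beside the markers. In the same test on 8969 genes, 110 were higher in ventral cells (1.23%) and 78 lower (0.87%), with 1202 at an unadjusted p under 0.05. The direction was the same in 3 of 3 libraries for 176 of the 188 genes. This comparison and the one with ridge cells share the ventral sums. The counts rest on each library: they were 41 higher and 41 lower without B6_E9.5, 514 and 438 without B6_E10.5, and 36 and 24 without 129_E9.5. The 24 leading genes kept their call each time, and DESeq2 called 21 of them, all but Ngfr, Peg10 and Mt1. The 24 include the markers Fzd1, Bambi, Msx2 and Dlx1, which had been picked on the same dorsal and ventral cells. Of the 50 results named here for this comparison, 24 lost their call in DESeq2.

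Beyond the markers, the gene with the clearest ventral excess was Itga4, a subunit of the fibronectin and VCAM1 receptor. It stood at 58.2, 28.4 and 77.4 CPM in ventral and at 4.50, 6.74 and 8.27 CPM in dorsal cells, with a log2 difference of 3.23 (SE 0.255, adjusted p = 7.85e-06 in edgeR). Gata3, a zinc-finger factor and BMP target, stood at 76.2, 29.5 and 39.4 CPM against 14.4, 15.7 and 5.27 CPM, a log2 difference of 2.18 (SE 0.262). Bmp4 stood at 77.5, 28.4 and 97.7 CPM against 12.6, 20.2 and 24.1 CPM, a log2 difference of 2.0 (SE 0.257, adjusted p = 0.00078 in edgeR). Ventral and dorsal values of these genes did not overlap, and the log2 ratio of Bmp4 within B6_E10.5 was 0.46. Of 10 BMP transducers and targets 4 were higher (Id3, Id4, Msx2 and Gata3) and 0 lower, with a list median of 0.39 (log2). Msx2 is a marker picked on the same dorsal and ventral cells. The call of Id3 was lost without B6_E9.5 (adjusted p = 0.413 in edgeR) and without 129_E9.5 (0.452), and that of Id4 without B6_E9.5 (0.408). DESeq2 called neither Id3 nor Id4.

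Of 14 ridge genes 7 were higher in ventral than in dorsal cells and 0 were lower, with a median of 0.56. They were Sp6, Dlx1, Dlx2, Msx2, Wnt5a, Gja1 and Tbx3. Dlx1 and Msx2 are markers picked on the same dorsal and ventral cells, so their part in the count is a description. Sp8 (log2 difference 0.37, adjusted p = 0.0683 in edgeR) and Bhlha9 (-0.36, adjusted p = 0.323) did not pass. The call of Sp6 was lost without B6_E9.5 (adjusted p = 0.226 in edgeR) or 129_E9.5 (0.398), and so was that of Gja1 (0.0838 and 0.348). Hoxc8 (0.62) and Hoxc9 (0.94), trunk Hox genes, were higher ventrally among 9 HoxB and HoxC genes, with 0 lower and a list median of -0.36. Without 129_E9.5 the calls of Hoxc8 (adjusted p = 0.187 in edgeR) and Hoxc9 (0.166) were lost, and without B6_E9.5 that of Hoxc9 (0.205). DESeq2 called none of Sp6, Gja1, Hoxc8 and Hoxc9.

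On the dorsal side, Batf3, a leucine-zipper factor known from dendritic cells, stood at 14.7, 7.09 and 8.14 CPM in ventral and at 93.2, 18.0 and 50.4 CPM in dorsal cells, a log2 difference of -2.43 (SE 0.220). Gap43, a growth-cone protein, stood at 12.8, 8.86 and 12.9 CPM against 38.7, 40.4 and 90.3 CPM, and Notum at 6.87, 4.73 and 2.71 CPM against 25.2, 15.7 and 13.5 CPM. Of 13 WNT targets and inhibitors 3 were lower in ventral cells (Sfrp1, Notum and Kremen2) and 0 higher. Krt7 (-1.30) and Krt14 (-0.89) were the 2 called members of 18 surface ectoderm and keratin genes, both lower in ventral cells. Both calls were lost without 129_E9.5 (adjusted p of 0.0994 and 0.18 in edgeR). Krt7 stood at 108, 117 and 180.5 CPM in dorsal, 32.7, 94.5 and 48.2 CPM in ventral and 10.2, 13.8 and 12.5 CPM in ridge cells, in that order within each library. Peg10, an imprinted retrotransposon-derived gene, stood at 50.04, 14.2 and 22.4 CPM against 240.0, 16.8 and 75.2 CPM. Cdkn1c, an imprinted inhibitor of the cell cycle, stood at 826, 379 and 1221 CPM in ventral and at 133, 379.5 and 264 CPM in dorsal cells, higher in 2 of 3 libraries (log2 difference 1.68, adjusted p = 0.0141 in edgeR). It lost its call without 129_E9.5 (adjusted p = 0.207 in edgeR). In DESeq2 the calls of Notum (adjusted p = 0.159), Krt7 (0.443), Peg10 (0.454) and Cdkn1c (1.0) were lost. Of 20 S phase and 20 G2 and M phase genes 0 passed in either direction.

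The difference between dorsal and ventral cells was smallest in B6_E10.5 for 93 of the 110 higher and 55 of the 78 lower genes. In the same order, the median log2 ratio of the higher genes was 1.31, 0.43 and 1.25, and that of the lower genes -1.44, -0.543 and -1.1. Ngfr, a neurotrophin receptor of dorsal ectoderm, shows it, with log2 ratios of -6.24, -1.32 and -4.82. Only 113 dorsal cells came from B6_E10.5, and stage, library and reaction cannot be told apart.

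**Figure D3:**
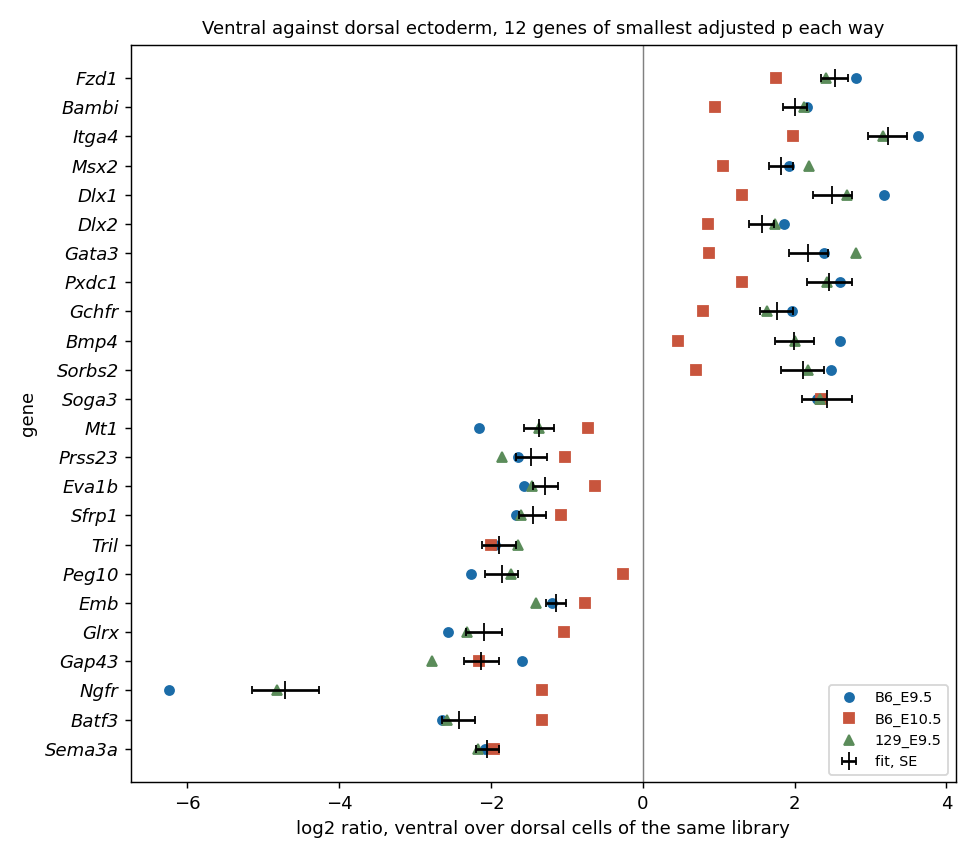
Log2 ratio of ventral over dorsal CPM (x axis) in each library (symbols) for the 12 genes of smallest adjusted p in each direction (y axis), with the fitted difference and its SE in black. B6_E10.5 lies nearest to 0 for most genes, as for Bmp4 at 0.46 against 2.60 and 2.0 in the other libraries.

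Between E9.5 and E10.5 the ventral cells of c57bl6.J had lower levels of Bambi, Msx1, Bmp4 and Prtg and higher levels of Krt14, Wnt7b, Tfap2b and Sost, each by at least 2-fold over either E9.5 library. Of other genes, many passed 2-fold over B6_E9.5 alone. With 1 library per stage there is no test, and ratios of B6_E10.5 over B6_E9.5 carry exact conditional binomial 95% intervals for counting error only. Of 3333 genes that reached 50 CPM and 20 UMIs in whichever library was higher, 81 were at least 2-fold higher in B6_E10.5 (2.43%) and 94 at least 2-fold lower (2.82%). The median log2 ratio of all of them was 0.01. Over 129_E9.5, the other library of the earlier stage, 43 of the 81 and 34 of the 94 also passed 2-fold in the same direction. Of 64 named stage results, 50 moved beyond their counting interval and 4 changed direction over that library, which also differs in strain. Of the 81 higher genes, 40 passed 2-fold in the same direction in ridge cells, 42 in dorsal cells and 28 in neither. Of the 94 lower genes these counts were 30, 44 and 39.

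Bambi was the marker that differed most. It stood at 652 CPM (1994 UMIs) in B6_E9.5 and at 61.4 CPM (104 UMIs) in B6_E10.5, a ratio of 0.0942 (0.0766 to 0.115). Its ratio was 0.216 in dorsal and 0.837 in ridge cells, so the ventral and dorsal flanks, but not the ridge, were past 2-fold. Msx1 stood at 260.0 and 30.1 CPM, a ratio of 0.116 (0.0855 to 0.154), with 0.311 in dorsal and 0.823 in ridge cells. Msx2 stood at 406 and 130 CPM, a ratio of 0.32 (0.276 to 0.37), Id1 at a ratio of 0.499, Id3 at 0.427 and Gata3 at 0.388. Of 7 BMP transducers and targets past the minimum, these 5 were lower by at least 2-fold and 0 higher, with a median log2 ratio of -1.23. Over 129_E9.5 only Msx1 of these 5 passed, at 0.189, with Msx2 at 0.694, Id1 at 0.744, Id3 at 0.627 and Gata3 at 0.75. Bambi passed over that library as well, at 0.222. Bmp4 itself stood at 77.5 and 28.4 CPM in ventral cells, a ratio of 0.366 (0.262 to 0.501) and of 0.29 over 129_E9.5, against 2.13 (1.88 to 2.42) in ridge cells. The intervals of the 2 classes lie on opposite sides of 1, and no difference between classes was tested. Bmp7 (ratio 0.894) and the receptor Bmpr1a (0.787) did not reach 2-fold. With members of 0 Fgf8 UMIs only, the ratios were 0.096 for Bambi, 0.111 for Msx1, 0.317 for Msx2 and 0.422 for Bmp4. With at least 2 En1 UMIs, Bmp4 stood at 0.515, just short of 2-fold, and Bambi at 0.0904.

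The markers did not move as one. Fzd1 stood at 204 and 77.4 CPM, a ratio of 0.379 (0.312 to 0.458), against 0.935 in ridge cells and 0.826 over 129_E9.5, and Dlx1 at 75.6 and 65.0 CPM, a ratio of 0.86 (0.679 to 1.08), which includes 1. Dlx2 had a ratio of 0.64. Tbx3, a T-box repressor, had a ratio of 0.285 and Sp6, a zinc-finger factor of limb ectoderm, of 0.36, while their ridge ratios were 1.06 and 0.956. Sp8 (0.646) and Trp63 (0.568) stayed within 2-fold. Of the WNT response genes, Lef1 had a ratio of 0.474 and Tcf7 of 0.335, and Tcf7 in ridge cells stood at 1.98. Wnt6 had a ratio of 0.473. The gap-junction gene Gja1 had a ratio of 0.435 in ventral and 0.846 in ridge cells. Over 129_E9.5, Lef1 (0.484) was past 2-fold, while Tbx3 (0.501), Tcf7 (0.503), Wnt6 (0.53), Gja1 (0.641) and Sp6 (0.678) were not.

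Among the genes that were lowest at E10.5 outside these pathways, Sct, which encodes the hormone secretin, stood at 375.5 and 34.2 CPM (ratio 0.0912) in ventral cells and had a ratio of 0.519 in ridge cells. Lmo7, an actin-binding junction protein, had a ratio of 0.147 against 1.35 in ridge and 0.891 in dorsal cells. Tmem59l had ratios of 0.141 and 1.26 in ventral and ridge cells, and Crabp1, a carrier of retinoic acid, of 0.179 and 0.795. In ridge cells all 4 genes stayed within 2-fold. Over 129_E9.5 the ventral ratios were 0.161 for Sct, 0.275 for Lmo7, 0.544 for Tmem59l and 0.288 for Crabp1. Of 9 oncofetal genes 5 were lower by at least 2-fold and 0 higher: Lin28a (0.248), Lin28b (0.499), Trim71 (0.436), Hmga1 (0.144) and Prtg (0.139). Prtg was at least as low in the other classes, at 0.127 in ridge and 0.0798 in dorsal cells. Of these 5 only Prtg (0.162) passed 2-fold with 129_E9.5 as the earlier library, with Lin28a at 0.538 and Lin28b at 0.974, and Hmga1 (1.55) and Trim71 (1.06) lay on the other side of 1. Hmga2 (521 and 916 CPM, ratio 1.76), the member with most UMIs, and Igf2bp3 (1.28) were higher at E10.5, within 2-fold. The histone gene Hist1h2ap, 1 of a family of similar copies whose reads may be split, had a ratio of 0.0779. Of 17 S phase genes 0 passed 2-fold, and of 18 G2 and M phase genes only Aurka did, which was higher.

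The higher genes included keratins and secreted factors. Krt14 stood at 15.4 CPM in B6_E9.5 and 122 CPM in B6_E10.5, a ratio of 7.95 (5.77 to 11.2), with 5.71 in dorsal and 2.14 in ridge cells. Krt7 had a ratio of 2.89 and Krt5 of 2.58. The direction of Krt5 depended on the earlier library, with a ratio of 0.855 over 129_E9.5. Of 13 surface ectoderm and keratin genes, 4 were at least 2-fold higher (Krt5, Krt7, Krt14 and Tfap2b) and 2 lower (Krt19 and Wnt6). Tfap2b stood at 20.3 and 239 CPM, a ratio of 11.8 (9.01 to 15.7), and at 10.1 in dorsal cells. Wnt7b, a canonical WNT ligand, stood at 11.4 and 172.5 CPM, a ratio of 15.1 (10.6 to 22.1), with 5.54 in dorsal and 2.12 in ridge cells, the last with an interval of 0.654 to 6.68. Bcl11b, a zinc-finger factor of skin and T cells, had ratios of 17.1 in ventral, 8.36 in dorsal and 17.8 in ridge cells. Gjb2, a connexin, was seen with 1 UMI in B6_E9.5 and 114 in B6_E10.5 (ratio 206, interval 36.2 to 8200), and in dorsal cells its ratio was 59.5.

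Some higher genes were already present on the dorsal side at E9.5. Sost, which encodes the WNT and BMP antagonist sclerostin, had 0 UMIs in ventral cells of B6_E9.5 and 306 UMIs (181 CPM) in B6_E10.5. With the earlier count set to 3 UMIs this gave a ratio of 184. In dorsal cells Sost had 203 UMIs at E9.5 and 134 at E10.5, a ratio of 1.65. Ventral cells of 129_E9.5 held 43 UMIs of Sost (29.2 CPM). Emx2, a homeobox gene, stood at 5.56 and 112 CPM in ventral cells, a ratio of 20.2 (12.3 to 35.4), against 0.933 in dorsal cells (369 and 138 UMIs). Sema3c, a guidance ligand, had a ratio of 3.61 in ventral and 1.12 in dorsal cells, and Krt7 of 2.89 and 1.08. For these 4 genes the dorsal ratio was below 2, and the dorsal libraries had them at both stages. Bhlha9 had a ventral ratio of 2.37 and a dorsal ratio of 1.05. Cxcl14 stood at 155 and 892 CPM, a ratio of 5.75, and at 0.899 over 129_E9.5, which held 991 CPM. Nfib, a nuclear factor I gene (ratio 10.7), and the metallothionein gene Mt2 (11.3) were other leading genes. Over 129_E9.5, Krt14 (3.53), Tfap2b (6.65), Wnt7b (5.78), Bcl11b (4.11), Emx2 (5.70), Sema3c (5.35), Nfib (3.39) and Mt2 (19.9) passed 2-fold, and Krt7 (1.96) and Bhlha9 (1.58) did not.

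**Figure D4:**
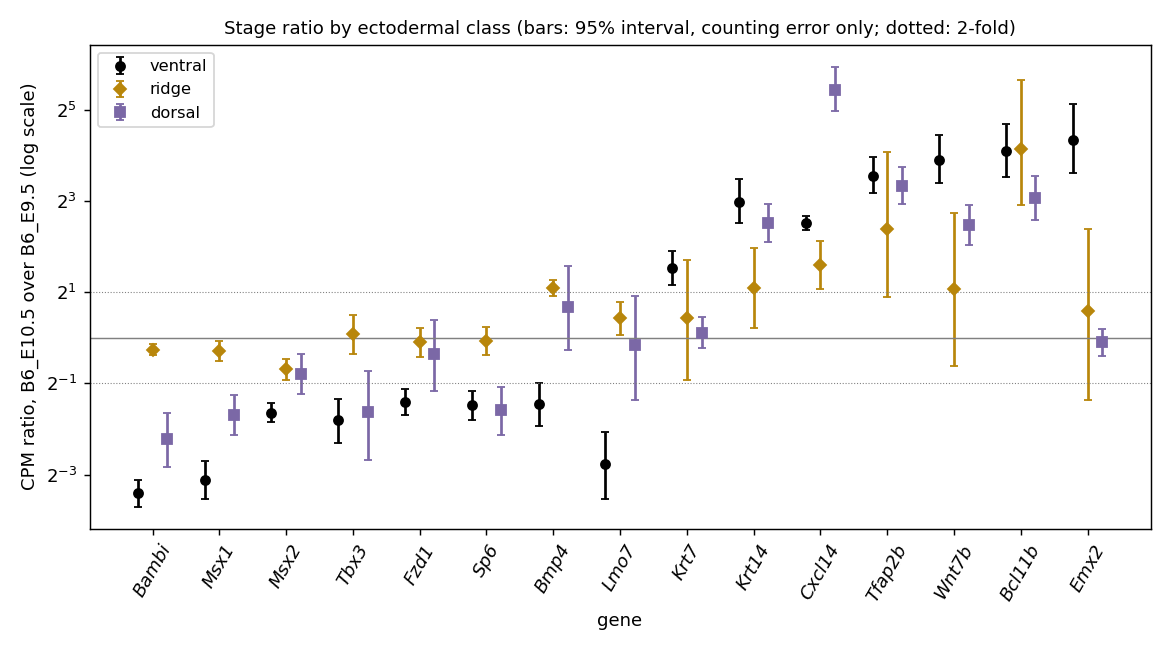
CPM ratio of B6_E10.5 over B6_E9.5 (y axis, log scale) for 15 genes (x axis) in ventral, ridge and dorsal cells, with 95% intervals for counting error only and dotted lines at 2-fold. Bambi and Msx1 lie near 0.0942 and 0.116 in ventral cells and at 0.837 and 0.823 in ridge cells, and Bmp4 lies on opposite sides of 1 in the 2 classes.

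Several measures moved with stage. The earlier library was deeper per ventral cell (medians 11250 and 7307 UMIs), its members had more Fgf8 (39.2 and 14.2 CPM), and the erythroid list summed to 1147 and 435 CPM. Muscle progenitor genes summed to 10.1 and 38.4 CPM. A list of Y-linked genes and Xist, of which 4 of 5 were among the genes counted, summed to 72.6 and 116 CPM, led by Ddx3y. That list joins male and female genes, so its sum does not measure the mix of embryo sexes. Stage cannot be told apart from the reaction. Ratios of the named genes in cells of at least 4000 UMIs were close to those above, as for Bambi (0.087), Msx2 (0.315), Krt14 (8.16) and Wnt7b (15.7).

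Between strains at E9.5, ventral cells of the library 129_E9.5 held less Bambi, Msx2 and Fzd1, and many of the leading ratios recurred in ridge and dorsal cells. Ratios are 129_E9.5 over B6_E9.5, again 1 library each and with no test, and they share B6_E9.5 with the stage ratios. Strain cannot be told apart from the reaction. Of 3366 genes past the same minimum, 57 were at least 2-fold higher in 129_E9.5 (1.69%) and 97 at least 2-fold lower (2.88%). The median log2 ratio of all of them was 0.10. Of the 57 higher genes, 36 passed 2-fold in ridge cells, 32 in dorsal cells and 15 in neither, and of the 97 lower genes 59, 74 and 17.

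Of the markers, 3 were lower in 129_E9.5: Bambi at 652 and 276 CPM (ratio 0.423, interval 0.38 to 0.471), Msx2 at 406 and 187 CPM (0.461, 0.404 to 0.526) and Fzd1 at 204 and 93.6 CPM (0.459, 0.379 to 0.552). Their ratios in dorsal cells were 0.433, 0.382 and 0.600, and in ridge cells 0.73, 0.497 and 0.609. Dlx1 stood at 75.6 and 89.6 CPM (ratio 1.19, interval 0.95 to 1.47) and Bmp4 at 77.5 and 97.7 CPM (1.26). Msx1 (0.613), Id1 (0.671) and Id3 (0.682) stayed within 2-fold. The receptor Bmpr1a had a ratio of 0.479 and Trp63 of 0.474. Of 8 FGF genes past the minimum the feedback inhibitors Spry1 (0.386) and Spry2 (0.153) were lower and 0 higher. Spry2 was as low in the other classes, at 0.155 in ridge and 0.175 in dorsal cells.

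The largest ratios mostly recurred in all 3 classes. Rpgrip1, a ciliary protein gene known from photoreceptors, had 683 UMIs in ventral cells of B6_E9.5 and 4 in 129_E9.5 (ratio 0.0122), 267 and 0 UMIs in ridge cells, and 615 and 6 in dorsal cells. Glo1, the methylglyoxal-detoxifying enzyme, stood at 160 and 687 CPM (ratio 4.30) in ventral cells, with 3.79 in ridge and 4.63 in dorsal cells. Btbd9 had a ratio of 3.37, Hddc3 of 8.30 and Cap1, an actin regulator, of 5.02. Eif3j2 (27.3) and Eif3j1 (0.137) are near-identical copies, so reads between them may be split and both values are uncertain. Cxcl14 stood at 155 and 991 CPM (ratio 6.39, interval 5.76 to 7.11), with 12.1 in ridge and 9.81 in dorsal cells. Slc1a3, a glutamate transporter, had a ratio of 3.34, Cldn3 of 3.18 and Krt5 of 3.02. The embryonic globin Hbb-bh1 (0.21) was lower as well, and the erythroid list summed to 1147 CPM in B6_E9.5 and 469 CPM in 129_E9.5. Hmga1 (0.0925), the multicopy histone gene Hist1h4i (0.0988, uncertain for the same reason), the signalling adaptor Lamtor3 (0.154) and the replication factor Rpa3 (0.204) were also on the lower side. The ventral cells of 129_E9.5 were also shallower, with a median of 5245 UMIs against 11250. Mitochondrial transcripts were 4.05% of ventral UMIs in B6_E9.5 and 2.86% in 129_E9.5, and of 12 past the minimum 3 were lower by at least 2-fold and 0 higher, with a list median of -0.61 (log2). The neuronal list summed to 34.0 and 107 CPM, of which Tubb3 made up 31.7 and 84.8 CPM. The part of these measures in other ratios was not tested.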

How the data were processed

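Forelimb buds were profiled in 3 libraries, and a droplet adds a cell barcode and a UMI to each captured molecule. The authors deposited UMI counts for each gene in each cell, which are not normalized, with a table of each cell's stage, strain and cluster. Cell Ranger 3 and the build mm10 are named in the submitters' processing notes, and the method of clustering is not given there. Of 15122 genes, 14775 versioned identifiers matched GENCODE M21.

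Members were cells of cluster 1 chosen on UMIs of En1, Wnt7a and Fgf8. Members, gene lists and markers were chosen with earlier results of these data known. Counts were summed per class and library. Ventral cells were compared with ridge and dorsal cells by edgeR 4.0.16 (R 4.3.3; glmQLFit and glmQLFTest, TMM scaling, filterByExpr, library as covariate, two-sided, Benjamini-Hochberg over all genes tested, threshold 0.05), on 6 sums each. DESeq2 1.42.0 was an alternative. The script was tested on simulated data. Stage and strain ratios are of CPM, with a count of 0 set to 3 UMIs, and were counted at 2-fold. Intervals (95%) and limits cover counting error only.

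Named were the 12 genes of smallest adjusted p each way with 1 direction in 3 of 3 libraries, the 12 largest and smallest ratios whose interval excluded 1, up to 4 members of each list with most UMIs, and list members past the threshold. Ribosomal, mitochondrial and Gm or Rik genes were counted and not spelled out, and a few genes are not reported here.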

Additional observations from a re-analysis of the deposited data

Results flagged for a closer look

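Some genes are given here whose ratio passed 2-fold in opposite directions in ventral cells and in another ectodermal class, with both intervals excluding 1. The differences between classes were not tested, and each stage or strain is 1 library. Between stages (B6_E10.5 over B6_E9.5), Bmp4 had a ratio of 0.366 in ventral and 2.13 in ridge cells. Cdkn1c had 0.459 in ventral and 2.85 in dorsal cells. Irx3, an Iroquois homeobox gene, had 0.385 in ventral and 4.68 in dorsal cells. Proser2 had 0.266 in ventral and 4.49 in dorsal cells, the latter from 5 and 9 UMIs. S100a6, a calcium-binding protein, had 0.349 in ventral and 2.08 in dorsal cells. Between strains (129_E9.5 over B6_E9.5), Nrtn, which encodes the neurotrophic factor neurturin, had 2.06 in ventral and 0.253 in ridge cells, the latter from 31 and 2 UMIs.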

How the results depend on the processing

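The 242 named results had 2738 values under alternatives. Of these, 2276 were unchanged, 386 kept direction and lost the call, 69 moved, 1 gained a call and 6 reversed. In the class comparisons, unchanged means the same direction and call. For stage and strain ratios it means a value on the same side of 1 and within the main counting interval, and moved means outside that interval. Whether such a ratio still passed 2-fold was not part of this count. Against ridge cells (198 higher, 307 lower), no filter on low counts gave 389 higher, DESeq2 46 and 130, no library term 4 and 22, En1 of at least 2 UMIs 105 and 183, thinning to 4000 UMIs 91 and 197, and a limit of 10 Fgf8 UMIs 91 and 190. Leaving out each library gave 65 to 240 higher and 123 to 370 lower. Against dorsal cells (110 and 78), no filter gave 273 and 210, DESeq2 20 and 20, no library term 0 and 0 in edgeR (315 genes at an unadjusted p under 0.05, 321 in DESeq2 with the term), thinning 51 lower and 0 Fgf8 UMIs 65 and 48. Leaving out each library gave 36 to 514 higher and 24 to 438 lower. All calls of DESeq2 were among those of edgeR in both comparisons. Without the 50 CPM minimum, 327 and 471 genes passed 2-fold by stage and 224 and 591 by strain, where more genes were counted. Reversed were Fzd1 against ridge cells without B6_E10.5 (0.000214, log2, range over the libraries left out -0.801 to 0.000214), Dlx1 by stage with at least 2 En1 UMIs (1.12), and, over 129_E9.5, Hmga1 (1.55), Spry2 (3.13), Krt5 (0.855) and Trim71 (1.06). The causes were not tested. TMM factors moved the median log2 ratio from 0.00563 to 0.000325 by stage and from 0.0951 to 0.0801 by strain. Over 129_E9.5 50 of the 69 values moved. For the stage and strain ratios no paired analysis was possible because each group has 1 sample, while the class comparisons pair the sums by library, and the fit with no library term is the unpaired one. In ventral cells 20 UMIs stand for 6.54, 11.8 and 13.6 CPM, so the 50 CPM minimum set which ratios were counted.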

Other observations

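In the comparison with ridge cells, genes within 500 kb of Fgf8 on chromosome 19 were looked at after their values had been seen. Of 11 tested, 3 were lower in ventral cells and 0 higher, against 3.45% lower and 2.22% higher among all genes tested. Npm3 (log2 difference -1.64) is a neighbour of Fgf8 on the same strand. Fbxw4, an F-box gene, differed by -1.63 (adjusted p = 0.00184 in edgeR's quasi-likelihood test). Btrc, a ubiquitin ligase subunit that acts on β-catenin, differed by -1.77 (adjusted p = 0.000115 in edgeR). The direction was the same in 3 of 3 libraries for each. Poll, Mgea5, Armh3, Ldb1, Pprc1, Nolc1 and Gbf1 did not pass. Around En1, Dbi and 3110009E18Rik were tested against dorsal cells and did not pass. Since Fgf8 chose the 2 classes, these values are a description.

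Among all 8903 genes tested against ridge cells, 2.22% were higher in ventral cells and 3.45% lower. Of 17 glycolysis genes, Slc2a3 was higher in ventral than in ridge cells (log2 difference 1.39) and Hk2, Pgk1 and Bnip3 were lower. Of 12 genes of dissociation and heat stress, Jund, Egr1, Hspa8 and Hspb1 were lower and 0 higher. Of 13 mitochondrial transcripts 0 passed in either direction. Without 129_E9.5 edgeR no longer called Hk2, Pgk1, Jund, Egr1, Hspa8 or Hspb1. Without B6_E9.5 it no longer called Hk2 (adjusted p = 0.0609) or Hspb1 (0.0744). DESeq2 did not call Hk2 (adjusted p = 0.311), Jund (0.0544), Hspa8 (0.337) or Hspb1 (0.41). The oncofetal chromatin gene Hmga2 was higher in ventral cells by 0.88 on the log2 scale.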
